A study of Mus musculus with 6 samples.

Results

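The basophil granule and histamine genes were a set of 7 genes, Hdc, Mcpt8, Cpa3, Cyp11a1, Cd200r3, Cd63l and Prss34, read on arrays of resting splenic natural killer cells (NKC) with and without the transcription factor Runx3. Every probe set (a group of short oligonucleotides that reads a transcript) whose only annotated symbol was one of these genes was taken, whatever its signal. This gave 9 probe sets for 5 of the 7 genes, of 18193 genes with a probe set of their own. Prss34, a serine protease of mouse basophils and mast cells, and Cd63l had no such probe set in the table used here, and no value can be given for them. The arrays came from 3 Runx3-/- and 3 WT mice of the ICR strain, all 6 weeks old, with 1 array per mouse. The Runx3-/- mice lacked Runx3 in the whole animal as far as the genotype label states, and the cells of neither group were stimulated. Spleen cells were depleted of other lineages by negative selection and then sorted for DX5, the integrin CD49b, and RNA was taken without culture. The sex label reads male and female for every array, although each sample is described in the design as taken from a single mouse.

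Basophils are rare granulocytes of blood and spleen that carry IgE on the receptor FcεRI and, when it is crosslinked, release histamine, proteases and lipid mediators and secrete cytokines. In the mouse they share much of this equipment with mast cells, but the protease Mcpt8 and the receptor Cd200r3 are commonly used to mark them. They also carry CD49b, so a DX5 sort alone does not separate them from NKC. In bulk samples such as these, more cells of a type and more RNA per cell cannot be told apart.

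Of the 5 measured members, 4 had a higher signal in all Runx3-/- arrays than in any WT array. Hdc, the histidine decarboxylase that makes histamine, rose 3.97-fold, and Cyp11a1, the enzyme that opens steroid synthesis from cholesterol, rose 4.05-fold. Mcpt8 and Cpa3, a serine protease and a carboxypeptidase of granules, were 3.04-fold and 4.54-fold higher but did not pass the adjusted test. Cd200r3 was read by a pair of probe sets that went different ways. Changes were tested with limma on the log2 signals of 9545 genes, each by its brightest probe set and with a log2 signal of at least 5 on at least 1 array, and p-values were adjusted over all of them (Benjamini-Hochberg, BH, 5%). By that test 2 of the 5 members were higher, beside 0.283% of all tested genes. At the looser thresholds of the study, an unadjusted p under 0.05 and a 1.5-fold change, 4 of the 5 were higher, beside 4.89% of tested genes. The groups lay apart, with Runx3-/- above WT on every array, for 4 of the 5, beside 5.98% of tested genes. The median change of the members was 1.99 on the log2 scale, against -0.13 for all tested genes. The members, and the other lists below, were chosen with earlier results of these data known. Their counts and medians therefore describe them and are no independent test of them. The p-values measure the spread between 3 mice a group.

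**Figure D1:**
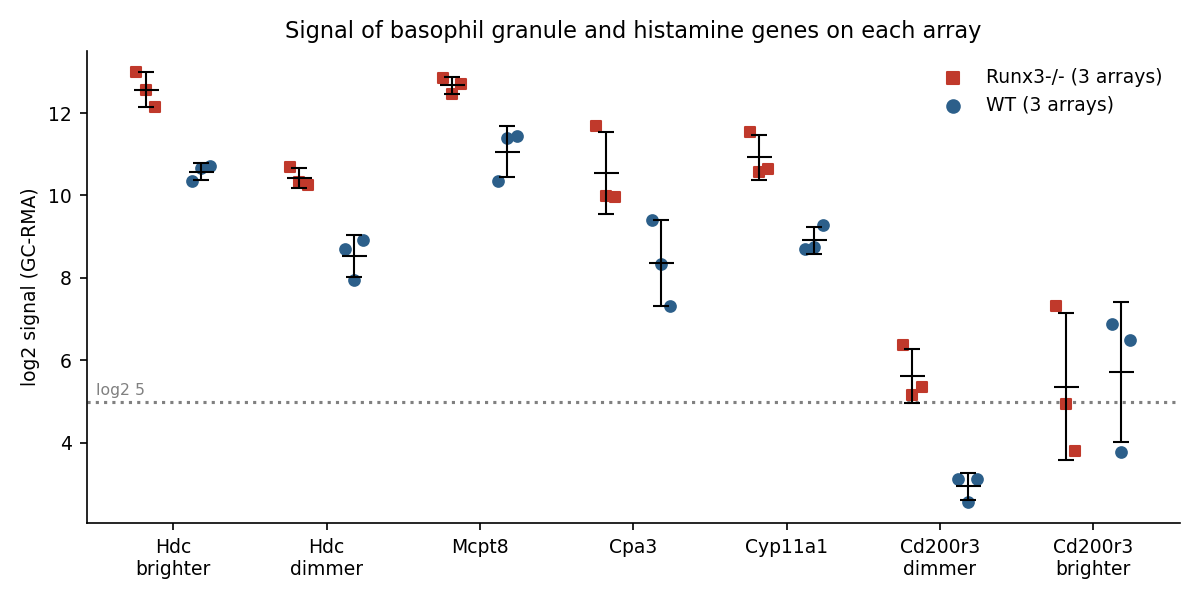
Log2 signal (vertical axis) of each member probe set that reached log2 5 on at least 1 array (horizontal axis), on 3 Runx3-/- arrays (squares) and 3 WT arrays (circles); black bars are the group mean and SD, and the dotted line is log2 5. The squares lie above the circles for every probe set except the brighter one of Cd200r3, and all WT values of the dimmer one of Cd200r3 lie under the line.

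Between 17074 and 17771 probe sets per array, 37.9% to 39.4%, reached log2 5. The targeted gene, Runx3, had log2 signals of 7.76, 8.51 and 8.68 in Runx3-/- and of 10.11, 11.56 and 10.73 in WT, a log2 change of -2.48 (SE 0.41, limma adjusted p = 0.0565), and the position of its probe set relative to the deletion is not known here. The defining genes of NKC were high on every array, with a mean log2 signal over 11 genes of 13.10 to 13.34 in Runx3-/- and of 13.01 to 13.46 in WT. Of them 0 met the study's thresholds as higher and 1 as lower, beside 4.89% and 8.86% of all tested genes. The lower one was Eomes, a T-box factor of NK maturation (log2 change -0.70, limma adjusted p = 0.185). Itga2, which encodes DX5, had 8.34, 9.06 and 8.31 in Runx3-/- and 8.73, 7.88 and 7.86 in WT, with overlapping groups (adjusted p = 0.555).

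Hdc is the only mammalian enzyme known to make histamine, by decarboxylating histidine. On its brighter probe set the log2 signal was 12.99, 12.55 and 12.15 in Runx3-/- and 10.34, 10.67 and 10.71 in WT. The lowest Runx3-/- array lay 1.44 above the highest WT array, more than the whole range of either group (0.83 in Runx3-/- and 0.38 in WT). The means were 12.56 ± 0.42 in Runx3-/- and 10.58 ± 0.21 in WT (SD, n = 3 each), a log2 change of 1.99 (SE 0.26, 95% interval 1.38 to 2.60, limma adjusted p = 0.0373). The dimmer probe set had 10.70, 10.32 and 10.25 in Runx3-/- and 8.70, 7.95 and 8.93 in WT, again without overlap. Its log2 change of 1.89 (3.72-fold, 95% interval 1.19 to 2.60) was close to that of the first. With every probe set of the array in the test, 16521 in all, the adjusted p was 0.0588 for the brighter and 0.0779 for the dimmer probe set. Hdc kept its call without WT replicate 1 (adjusted p = 0.0432) and lost it without any other array, with an adjusted p of 0.0911, 0.179 and 0.0689 without Runx3-/- replicates 1, 2 and 3, and of 0.111 and 0.110 without WT replicates 2 and 3.

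The promoters of the 4 members that lay apart are shown because Runx3 binds DNA through the RUNX motif and Gata2, a factor needed for basophils and mast cells, through the GATA motif, so that the letters can be read beside the signals. The sequences are RefSeq windows of the GRCm38.p6 reference from 250 bases before to 50 after an annotated start, and the ICR mice may differ from them. Capitals mark RUNX motifs, which were searched as TGTGGT and also in the form TGTGGC, the form TGCGGT and the form TGCGGC, and GATA motifs, searched as AGATAA and in the form TGATAA, each on both strands.
Hdc (chr2:126618629-126618928, minus strand): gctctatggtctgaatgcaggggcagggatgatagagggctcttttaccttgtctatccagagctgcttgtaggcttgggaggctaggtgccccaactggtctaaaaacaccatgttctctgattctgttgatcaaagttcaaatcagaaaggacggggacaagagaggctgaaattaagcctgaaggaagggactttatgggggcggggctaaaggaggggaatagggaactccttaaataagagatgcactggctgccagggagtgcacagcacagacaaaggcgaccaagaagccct
Mcpt8 (chr14:56085148-56085447, minus strand): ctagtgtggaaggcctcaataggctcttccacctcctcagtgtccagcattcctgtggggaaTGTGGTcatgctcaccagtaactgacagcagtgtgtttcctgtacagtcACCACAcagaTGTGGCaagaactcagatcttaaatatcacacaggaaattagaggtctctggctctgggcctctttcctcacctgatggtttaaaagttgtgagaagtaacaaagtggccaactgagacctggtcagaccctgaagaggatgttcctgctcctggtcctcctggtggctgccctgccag
Cpa3 (chr3:20242132-20242431, minus strand): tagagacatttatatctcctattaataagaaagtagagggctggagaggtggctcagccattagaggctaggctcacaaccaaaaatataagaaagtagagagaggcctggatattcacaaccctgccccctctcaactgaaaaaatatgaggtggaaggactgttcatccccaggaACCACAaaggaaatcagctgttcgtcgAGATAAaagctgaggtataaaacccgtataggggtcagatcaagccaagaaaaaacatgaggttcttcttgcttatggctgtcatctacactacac
Cyp11a1, first start (chr9:57997774-57998073, plus strand): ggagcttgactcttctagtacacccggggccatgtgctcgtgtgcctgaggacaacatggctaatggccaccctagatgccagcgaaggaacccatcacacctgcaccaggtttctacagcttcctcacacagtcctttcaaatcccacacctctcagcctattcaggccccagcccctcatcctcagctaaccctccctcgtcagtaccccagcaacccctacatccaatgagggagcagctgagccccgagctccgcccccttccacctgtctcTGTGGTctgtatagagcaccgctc
Cyp11a1, second start (chr9:58014702-58015001, plus strand): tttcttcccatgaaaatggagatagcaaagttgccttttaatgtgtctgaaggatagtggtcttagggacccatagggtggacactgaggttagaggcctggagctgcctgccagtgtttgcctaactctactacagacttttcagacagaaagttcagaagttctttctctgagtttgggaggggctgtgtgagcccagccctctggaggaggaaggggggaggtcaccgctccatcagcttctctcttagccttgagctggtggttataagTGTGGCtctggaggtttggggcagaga

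The Hdc window held neither motif, and Mcpt8 held 3 RUNX motifs, which start 188, 139 and 129 bases before the start of the gene. Cpa3 held a RUNX motif 73 bases before its start and a GATA motif 46 bases before it. Both Cyp11a1 windows held 1 RUNX motif, 27 and 24 bases after the start. In the windows not printed, Cd200r3 held 2 GATA motifs and Prss34 held 4 RUNX motifs, of which a pair overlap, and 1 GATA motif. Cd63l matched no window. In all, 5 of the 7 windows of 6 members held a RUNX motif, beside 45.2% of 32851 windows of the same length, and 3 held a GATA motif, beside 18.6%. These matches describe letters and not binding sites.

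Mcpt8 encodes a granule serine protease of mouse basophils. Its log2 signal was 12.85, 12.46 and 12.70 in Runx3-/- and 10.34, 11.40 and 11.45 in WT. The groups did not overlap, and WT replicate 1 lay below the other WT arrays. The means were 12.67 ± 0.19 in Runx3-/- and 11.06 ± 0.62 in WT (SD, n = 3 each), and the log2 change of 1.61 (95% interval 0.85 to 2.36) did not pass (limma adjusted p = 0.0959). Without WT replicate 1 the change was 1.25 (adjusted p = 0.0559). It passed under 2 alternatives, trend and robust moderation (adjusted p = 0.0449) and array weights (adjusted p = 0.0468), of a range from 0.0449 to 0.269.

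Cpa3 encodes carboxypeptidase A3, which trims peptides in mast cell and basophil granules. It had 11.69, 9.98 and 9.96 in Runx3-/- and 9.41, 8.33 and 7.32 in WT. Its groups did not overlap, but the lowest Runx3-/- array lay only 0.54 above the highest WT array, and both groups were wide. The means were 10.54 ± 0.99 in Runx3-/- and 8.36 ± 1.04 in WT (SD, n = 3 each). The log2 change of 2.18, the highest among the members at the gene level, had the 95% interval 0.71 to 3.65 and did not pass (limma adjusted p = 0.178). It was 1.61 without Runx3-/- replicate 1, the highest array, and 2.71 without WT replicate 1.

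Cyp11a1 encodes the mitochondrial enzyme that cleaves the side chain of cholesterol to give pregnenolone. Its log2 signal was 11.55, 10.58 and 10.65 in Runx3-/- and 8.70, 8.75 and 9.28 in WT. The gap between the groups was 1.31, and Runx3-/- replicate 1 was the highest array. The means were 10.93 ± 0.54 in Runx3-/- and 8.91 ± 0.32 in WT (SD, n = 3 each), a log2 change of 2.02 (SE 0.32, 95% interval 1.28 to 2.76, limma adjusted p = 0.0486). The call was lost without any one array, with an adjusted p of 0.0997, 0.179 and 0.106 without Runx3-/- replicates 1, 2 and 3, and of 0.0671, 0.153 and 0.110 without WT replicates 1, 2 and 3. The other 2 probe sets of Cyp11a1 lay under log2 5 on all arrays, at 2.54 to 2.61 in Runx3-/- and 2.55 to 2.63 in WT on one and at 3.14 to 3.18 in Runx3-/- and 3.18 to 3.33 in WT on the other. They were not tested, and averaging them with the bright one gave a log2 change of 0.64.

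Cd200r3 encodes an activating receptor of the CD200 receptor family on basophils and mast cells. Its brighter probe set, which stands for the gene in the test, had 7.31, 4.95 and 3.81 in Runx3-/- and 6.87, 3.77 and 6.50 in WT. These groups overlapped (log2 change -0.36, 95% interval -2.81 to 2.09, limma adjusted p = 0.895), and the change was above 0 without Runx3-/- replicate 3 (0.42), without WT replicate 1 (0.22) and without WT replicate 3 (0.04). The dimmer probe set had 6.37, 5.15 and 5.36 in Runx3-/- and 3.13, 2.57 and 3.12 in WT. All 3 Runx3-/- arrays were at or above log2 5 and all 3 WT arrays under it, so that the signal was at least 1.54-fold higher in Runx3-/- with WT values raised to log2 5. The fitted log2 change was 2.68 (95% interval 1.84 to 3.52) and did not pass over all probe sets (adjusted p = 0.0588). Read by this probe set alone, the gene passed among the tested genes (adjusted p = 0.0361), but with values under log2 5 raised to 5 the change was 0.63 (adjusted p = 0.423). Which part of the transcript each probe set reads is not known here. Counting probe sets, 0 of the 7 tested ones of the members passed BH 5% as higher, beside 0.0363% of all tested probe sets, and all 6 other than the brighter one of Cd200r3 met the study's thresholds as higher, beside 5.19%. The same 6 lay apart, beside 6.38%.

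**Figure D2:**
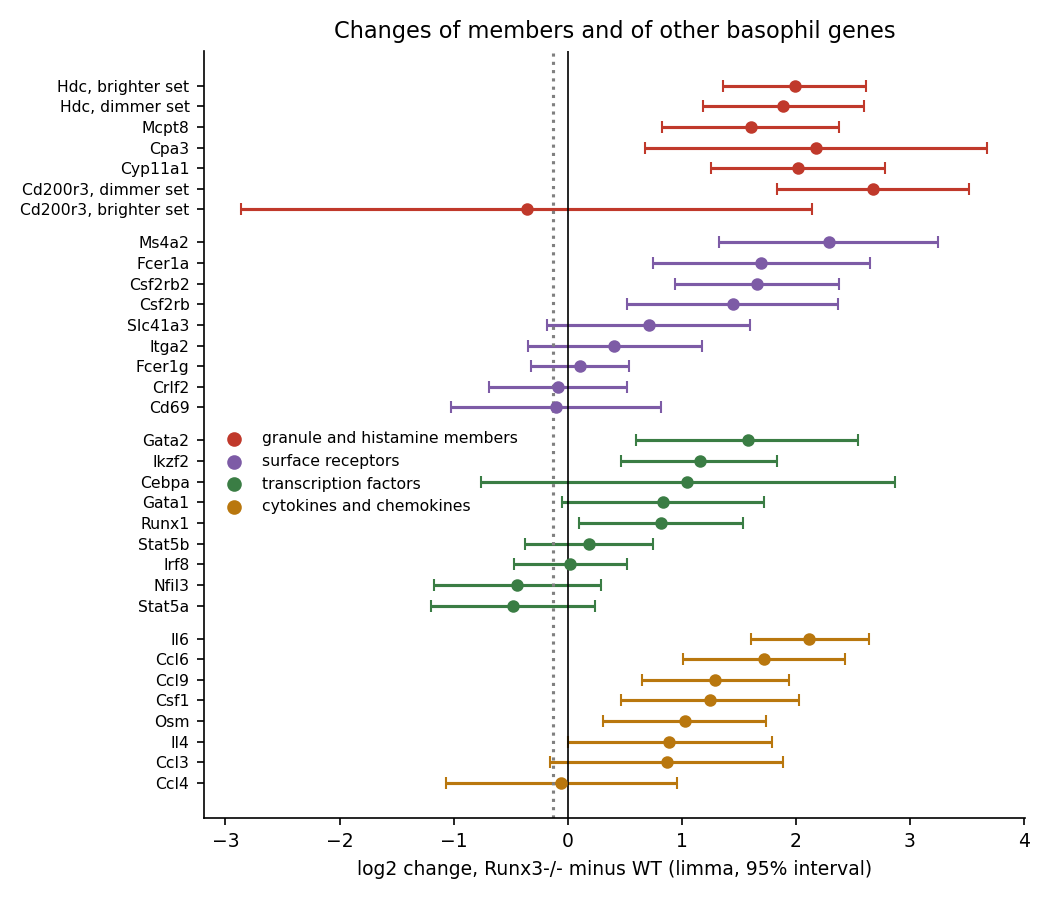
Log2 change, Runx3-/- minus WT (horizontal axis), with the 95% interval of the limma fit, of the member probe sets (fit over all probe sets) and of the tested genes of 3 other basophil lists (fit over genes; vertical axis); the dotted line is the median of all tested genes, -0.13. The intervals of Hdc, Mcpt8, Cpa3 and Cyp11a1 lie above 0 and that of the brighter Cd200r3 probe set spans it.

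The mean log2 signal of the 5 measured members was 11.28, 10.11 and 9.85 in Runx3-/- and 9.13, 8.59 and 9.05 in WT. Every Runx3-/- array lay above every WT array, with means of 10.41 ± 0.76 in Runx3-/- and 8.92 ± 0.30 in WT (SD, n = 3 each) and a difference of 1.49. Without Cd200r3 the mean of the other 4 was 12.27, 11.40 and 11.36 in Runx3-/- and 9.70, 9.79 and 9.69 in WT, a difference of 1.95. Runx3-/- replicate 1 was the highest of its group for 5 of the 5 members, while in WT the highest array was replicate 1 for 2 members and replicate 3 for 3. The difference of the 5-member mean was 1.06 without Runx3-/- replicate 1 and 2.10 with the dimmer Cd200r3 probe set. Some members moved in nearly equal steps and others did not. On each array the log2 signal of Cyp11a1 minus that of Hdc lay between -1.97 and -1.43 in Runx3-/- and between -1.92 and -1.44 in WT, a range of 0.54 over the 6 arrays. The same difference of Hdc and Mcpt8 had a range of 0.87, and that of Cpa3 and Mcpt8 a range of 3.19. The pairs with the brighter Cd200r3 probe set had the widest ranges, 4.88 to 5.42.

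Markers of other cell types moved with the members in part. The mean log2 signal of 6 B cell genes was 8.83, 7.83 and 7.90 in Runx3-/- and 7.31, 6.31 and 6.47 in WT, with every Runx3-/- array above WT. At the study's thresholds 4 of them were higher (1 without Runx3-/- replicate 1, and 2 without WT replicate 2 or 3), beside 4.89% of all tested genes. The signal of Cd79a, a chain of the B cell receptor, exceeded WT at least 1.74-fold (limma adjusted p = 0.0645), and Pax5, which defines B cells, was under log2 5 on all arrays. The mean of 8 macrophage and monocyte genes was 9.13, 7.28 and 4.77 in Runx3-/- and 6.19, 6.23 and 6.19 in WT. Of these 2 met the study's thresholds as higher (6 without Runx3-/- replicate 3, and 1 without any one other array), beside the same 4.89%. Runx3-/- replicate 1 was the highest array for this list and for the members. Runx3-/- replicate 3 was the lowest array for this list. It was also the lowest Runx3-/- array for 3 of the 5 members, and for Hdc, Mcpt8, Cpa3 and Cyp11a1 it lay above every WT array. Adgre1, a macrophage surface receptor, differed from the mean of its list, with 8.85, 8.33 and 7.05 in Runx3-/- and 6.20, 6.53 and 5.91 in WT, so that all Runx3-/- arrays lay above WT (log2 change 1.86, limma adjusted p = 0.133). The mean of 7 neutrophil genes was 7.44, 4.92 and 4.57 in Runx3-/- and 7.55, 8.39 and 4.21 in WT, which overlapped. Of these 0 met the study's thresholds as higher and 1 as lower (0 to 3 when 1 array was left out), beside 8.86% of all tested genes lower. It was Camp, at least 2.21-fold lower (limma adjusted p = 0.310). Of 4 tested platelet genes 0 met them as higher and 1 as lower, Gp1bb (log2 change -0.78, adjusted p = 0.295), with 0 to 1 in either direction when 1 array was left out. Of 5 tested T cell genes 0 met the study's thresholds. The part of B cell or macrophage RNA in the members' signals was not tested.

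**Figure D3:**
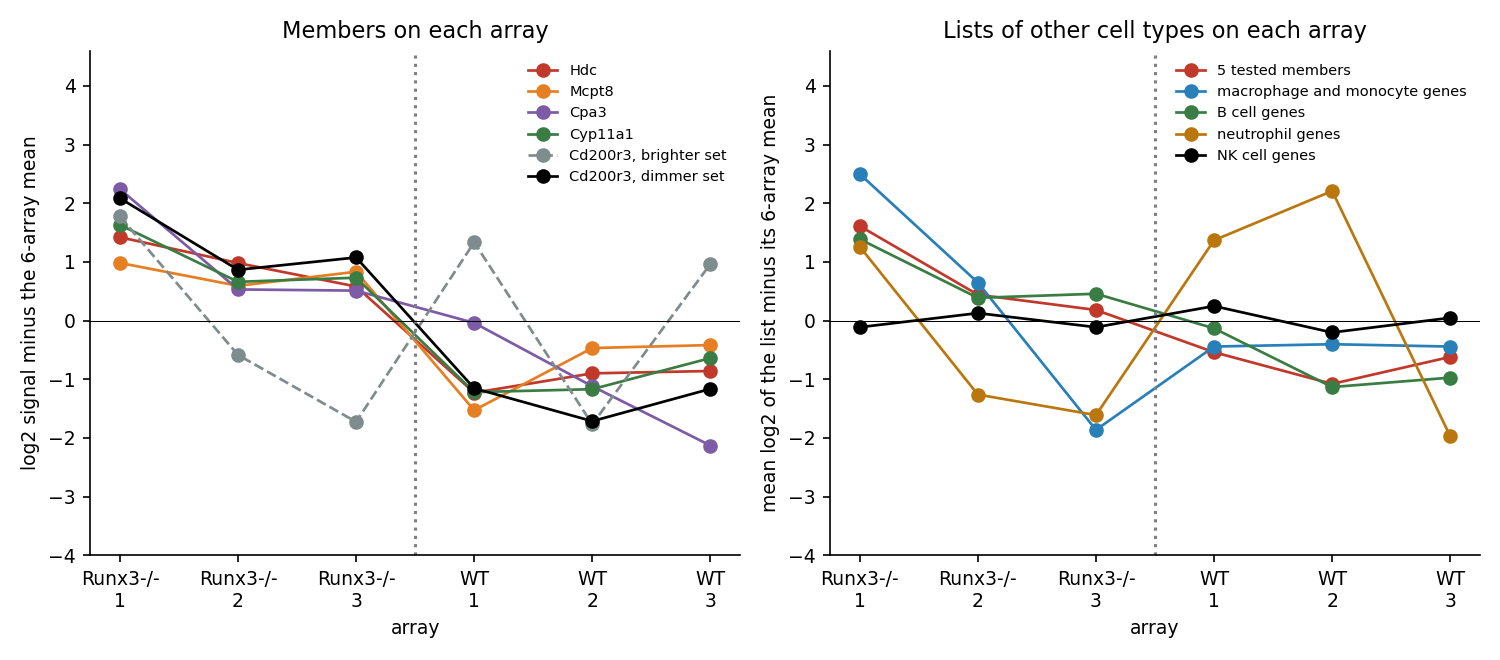
Left, log2 signal of each member minus its own mean over the 6 arrays (vertical axis) by array (horizontal axis, Runx3-/- before WT). Right, the same for the mean of the 5 members and of lists that define other cell types; the means of the members and of the B cell genes are higher on all 3 Runx3-/- arrays than on any WT array, the macrophage and monocyte genes spread widely within Runx3-/- (9.13, 7.28 and 4.77 before centring), and the NKC genes stay near 0 (13.01 to 13.46 before centring).

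Mast cells share Hdc, Cpa3 and the IgE receptor with basophils. Of 8 mast cell defining genes with a probe set, 6 lay under log2 5 on all arrays: the chymase-like proteases Mcpt1, Mcpt2 and Mcpt4, the tryptases Tpsb2 and Tpsab1, and the receptor Mrgprb1. Cma1, annotated as mast cell chymase, had 13.11, 13.50 and 13.06 in Runx3-/- and 13.60, 11.90 and 12.75 in WT, and Kit, the stem cell factor receptor, had 10.10, 9.33 and 10.71 in Runx3-/- and 9.63, 9.85 and 10.39 in WT. Both overlapped between the groups. Of 3 tested eosinophil genes 2 met the study's thresholds as higher, beside 4.89% of all tested genes. They were Alox15, a lipoxygenase (3.45-fold higher, limma adjusted p = 0.134), and Siglecf (2.26-fold higher, adjusted p = 0.160). The third, Prg2, went the other way (log2 change -1.51, adjusted p = 0.517). It had 2.33, 2.39 and 2.33 in Runx3-/- and 2.43, 6.80 and 2.35 in WT, so only 1 array reached log2 5. Epx, Prg3 and Il5ra, which define eosinophils, were under log2 5 on all arrays.

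Basophils respond through receptors for IgE and for growth cytokines. Of 9 tested receptor genes 4 met the study's thresholds with a higher signal and 0 with a lower one, and 0 passed BH 5%. Of all tested genes 4.89% were higher and 8.86% lower at those thresholds. The median log2 change of the receptor genes was 0.71, against -0.13 for all tested genes. The 4 were subunits of receptors for IgE and for IL-3 and related cytokines. Ms4a2, the β chain of FcεRI, had 12.98, 11.98 and 12.19 in Runx3-/- and 10.87, 9.95 and 9.46 in WT (log2 change 2.29, limma adjusted p = 0.0672; 1.43 on its other probe set). Fcer1a, the α chain that binds IgE, had 11.66, 10.68 and 10.56 in Runx3-/- and 9.72, 8.55 and 9.53 in WT (1.70, adjusted p = 0.133). Csf2rb2 and Csf2rb, β chains of the IL-3 receptor in the mouse, had log2 changes of 1.66 (adjusted p = 0.0707) and 1.45 (adjusted p = 0.161). The groups lay apart for all 4. The γ chain Fcer1g, which NKC use as well, had 12.98 to 13.20 in Runx3-/- and 12.89 to 13.02 in WT. The 2 tested receptor genes with a change below 0 were Crlf2 (-0.08) and Cd69 (-0.10), both with overlapping groups. Il3ra, Ccr3 and Ptgdr2, which also mark basophils, were under log2 5 on all arrays.

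Of 8 tested cytokine and chemokine genes of basophils, 5 met the study's thresholds as higher, beside 4.89% of all tested genes. As lower, 0 met them, beside 8.86%, and the median log2 change of the list was 1.14. Il6 rose 4.36-fold (limma adjusted p = 0.0213), with 9.48, 9.20 and 9.03 in Runx3-/- and 7.04, 6.94 and 7.36 in WT. The number of all tested genes past BH 5%, 58, was 127 without WT replicate 1 and 0 without any other single array, so that the call of Il6 was lost there as well. Ccl6 (log2 change 1.72, adjusted p = 0.0645), Ccl9 (1.29, adjusted p = 0.113), Csf1 (1.25, adjusted p = 0.158) and Osm (1.03, adjusted p = 0.186) did not pass BH 5%. Il4, the cytokine for which basophils are best known, was dim, with 5.67, 4.79 and 4.66 in Runx3-/- and 3.45, 4.47 and 4.52 in WT (adjusted p = 0.312), and Il13 and Tslp were under log2 5 on all arrays. Of 9 tested transcription factors, 3 met the study's thresholds as higher, beside the same 4.89%, and 0 as lower (median log2 change 0.82). They were Gata2 (log2 change 1.58, adjusted p = 0.155), Ikzf2 (1.16, adjusted p = 0.144) and Runx1 (0.82, adjusted p = 0.263), and Mitf, a factor of mast cells, was under log2 5 on all arrays. The 2 tested factors with a change below 0 were Stat5a (-0.48) and Nfil3 (-0.44), both with overlapping groups.

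**Figure D4:**
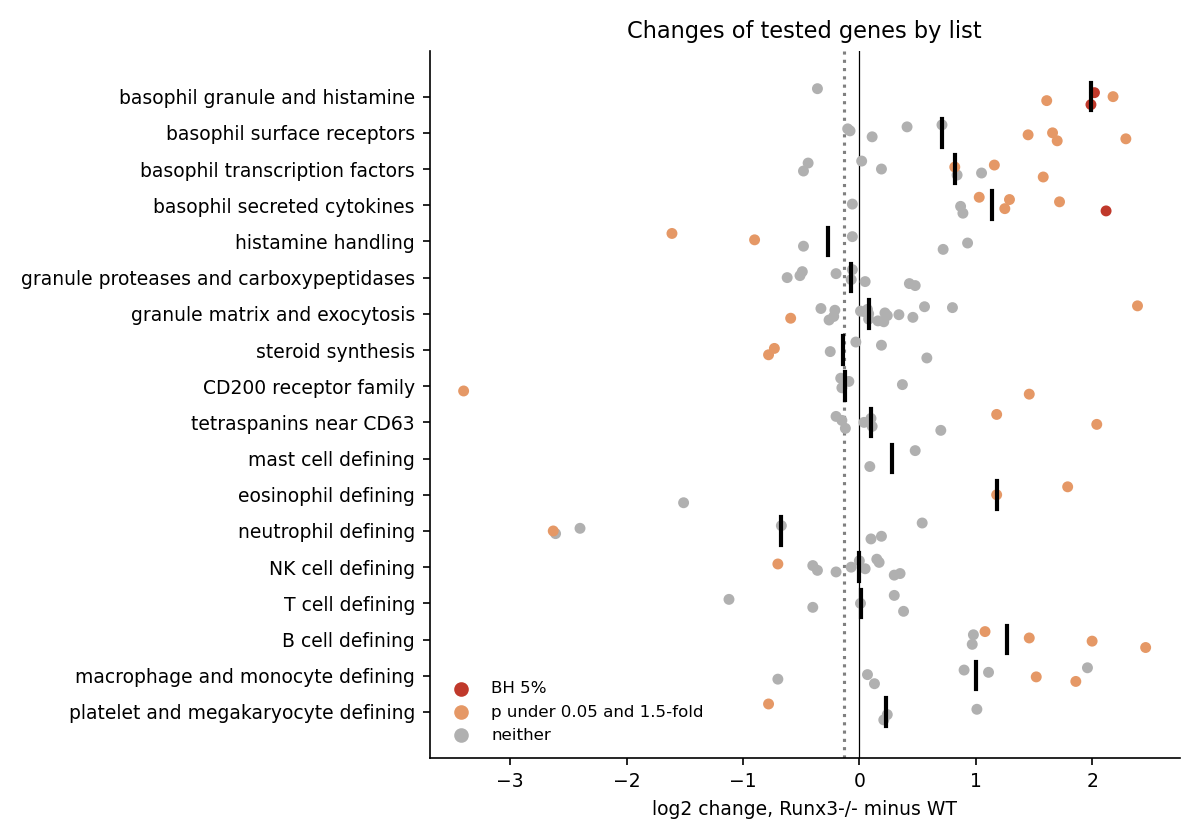
Log2 change, Runx3-/- minus WT (horizontal axis), of every tested gene of each list except the erythroid one (vertical axis), coloured by the criterion it met. Black bars are list medians and the dotted line is the median of all tested genes, -0.13. The median is 1.99 for the members, 0.71 to 1.14 for the other basophil lists and -0.27 to 0.10 for the lists of histamine handling, granule, steroid, CD200 receptor and tetraspanin genes. Among lists of other cell types it is 1.27 for B cell, 1.18 for eosinophil and 1.0 for macrophage and monocyte genes. It is -0.67 to 0.28 for the neutrophil, NKC, T cell, platelet and mast cell lists.

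Among 15 genes that handle histamine (its transporters, degrading enzymes and receptors, and related decarboxylases), 6 were tested, of which 2 met the study's thresholds as lower and 0 as higher, with a median log2 change of -0.27. Such calls made up 8.86% of tested genes, and BH 5% called 0.325% of tested genes lower and none of these. Ddc, the decarboxylase of aromatic amino acids, had 5.70, 6.43 and 6.66 in Runx3-/- and 6.94, 8.36 and 8.32 in WT (log2 change -1.61, limma adjusted p = 0.160), and Aldh7a1, an aldehyde dehydrogenase, had a log2 change of -0.90 (adjusted p = 0.205). Slc18a2, the vesicular monoamine transporter that loads histamine into granules, had 7.91, 7.15 and 5.85 in Runx3-/- and 5.95, 5.99 and 6.82 in WT, with overlap. The receptor Hrh4 had 6.55, 4.95 and 4.91 in Runx3-/- and 4.67, 4.31 and 4.63 in WT, without overlap but with 1 array at log2 5 or above (log2 change 0.93, at least 1.43-fold, adjusted p = 0.343). The receptor Hrh2, above log2 5 on all 6 arrays, went the other way without overlap. It had 6.80, 6.33 and 6.51 in Runx3-/- and 7.02, 7.11 and 6.95 in WT (log2 change -0.48, adjusted p = 0.31). The count of genes higher at the study's thresholds, 0, was 1 without Runx3-/- replicate 2, 2 without Runx3-/- replicate 3 and 1 with the replicate block. The degrading enzymes Hnmt and Aoc1 and the receptors Hrh1 and Hrh3 were under log2 5 on all arrays.

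Of 27 other granule proteases and carboxypeptidases, 24 had a probe set, 15 lay under log2 5 on all arrays and 9 were tested, of which 0 met the study's thresholds in either direction (median log2 change -0.07). Without WT replicate 1 the count of higher genes was 1, and without WT replicate 3 that of lower genes was 1. Granzymes A and B of NKC were among these, and Gzma had 15.67 to 15.89 in Runx3-/- and 15.68 to 15.92 in WT. Of 19 genes of the granule matrix and exocytosis, 1 was higher and 1 lower (median 0.08), beside 4.89% and 8.86% of all tested genes. Rab44, a large Rab GTPase, had 9.13, 7.55 and 7.97 in Runx3-/- and 6.17, 4.20 and 7.11 in WT, which is at least 4.36-fold more than in WT (limma adjusted p = 0.195), and missed the thresholds without Runx3-/- replicate 1. Lamp1, a lysosome membrane protein, had a log2 change of -0.59 (adjusted p = 0.304) and missed the thresholds without Runx3-/- replicate 2 or 3 or WT replicate 2 or 3. Srgn, the serglycin core protein that holds granule contents, had 14.10 to 14.26 in Runx3-/- and 13.86 to 14.06 in WT (adjusted p = 0.590).

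No steroid gene other than Cyp11a1 met the study's thresholds as higher. Of 15 with a probe set, 9 lay under log2 5 on all arrays, among them Cyp17a1, Cyp11b1 and Cyp21a1, which act after Cyp11a1, and Nr5a1, the factor that drives steroid enzymes in gonad and adrenal. Of the 6 tested, 2 met the study's thresholds as lower, beside 8.86% of all tested genes, and 0 as higher (median log2 change -0.14). Stard3, a cholesterol carrier, had a log2 change of -0.78 (limma adjusted p = 0.134), and Fdx1, the ferredoxin that passes electrons to Cyp11a1, had 9.54, 9.76 and 10.14 in Runx3-/- and 9.95, 10.98 and 10.71 in WT (adjusted p = 0.310). The count of 2 was 1 without Runx3-/- replicate 1 or 2 or WT replicate 2 or 3.

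In the CD200 receptor family the inhibitory receptor Cd200r1 had 6.25, 6.30 and 6.21 in Runx3-/- and 4.95, 4.22 and 5.20 in WT, a signal at least 2.28-fold above WT (limma adjusted p = 0.0768). Cd200r4 had 3.93, 3.76 and 4.19 in Runx3-/- and 8.28, 3.91 and 9.89 in WT, so that 2 of the 3 WT arrays stood far above the rest (adjusted p = 0.275), and 0 genes of this family met the study's thresholds as lower without any single array except WT replicate 2. The median log2 change of the 6 tested genes of this family and its adaptors was -0.12. Of 9 tested tetraspanins, the protein family of the granule marker CD63, 2 were higher at the study's thresholds (median 0.10), beside 4.89% of all tested genes. They were Cd81, with 9.19, 9.24 and 8.16 in Runx3-/- and 6.30, 6.92 and 7.25 in WT (4.11-fold, adjusted p = 0.0695), and Tspan32 (2.27-fold, adjusted p = 0.0867), whose other probe set had a log2 change of 0.09.

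The genes beside the members on the chromosome were looked up as the 5 genes on each side in the RefSeq order. None passed BH 5% among 6 tested neighbours of Hdc, 1 of Mcpt8, 4 of Cpa3, 5 of Cyp11a1, 7 of Cd200r3 and 4 of Prss34. At the study's thresholds the neighbours higher in Runx3-/- were Cd200r1 and Btla, an inhibitory receptor of lymphocytes (log2 change 1.53, limma adjusted p = 0.303), beside Cd200r3, and Arid3b (0.61, adjusted p = 0.241) beside Cyp11a1. Those lower were Cd200r4 beside Cd200r3 and Dtwd1 (-0.72, adjusted p = 0.280) beside Hdc. At these thresholds 4.89% of all tested genes were higher and 8.86% lower. The protease neighbours Mcpt1, Mcpt2 and Mcpt4 of Mcpt8 and Tpsb2 of Prss34 were under log2 5 on all arrays.

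The genes most like the members over the 6 arrays were taken as those whose log2 signals, centred on their own mean, differed least on average from the mean centred profile of the 5 measured members. They were Mzb1, a chaperone of plasma cells and B cells (mean absolute difference 0.13), Cyp4f18 (0.15), Mboat1, Pdzd4, Btk, a kinase of B cell and IgE receptor signalling, and Ifi27l2a (0.16 each), Csf2rb (0.17) and Gab2, an adaptor of IgE receptor signalling (0.18). Fcer1a was at rank 10 and Gata2 at rank 26 of the other tested genes. All 8 were higher on every Runx3-/- array than on any WT array, a direction that their choice by this profile fixes. WT replicate 2 was the lowest array of the profile (-1.08, against -0.53 and -0.62 for WT replicates 1 and 3). It was also the lowest WT array of all 8 genes. Of the members' brightest probe sets only that of Cd200r3 was lowest there. Without Cd200r3 the WT means of the members were 9.70, 9.79 and 9.69. The 8 genes thus match a profile shaped in part by Cd200r3, and a ranking without it was not made. Gab2 had 11.35, 10.78 and 10.46 in Runx3-/- and 10.06, 9.18 and 9.77 in WT, and Pdzd4, whose WT arrays all lay under log2 5, was at least 1.54-fold higher in Runx3-/-. Among the members themselves the difference from this profile was 0.27 for Cyp11a1, 0.38 for Hdc, 0.51 for Cpa3, 0.54 for Mcpt8 and 1.21 for Cd200r3.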

How the data were processed

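RNA of DX5+ resting NKC was biotin-labelled and hybridised to Affymetrix mouse arrays. The labels name a cDNA synthesis kit and the study's methods a whole-transcript kit. The authors deposited log2 values of 45101 probe sets made with GC-RMA in Partek (versions not given in the sources used here), which corrects background by base content and brings arrays to a common distribution, so a change in total RNA per cell cannot be seen. The platform annotation gave 1 symbol for 34945 probe sets, several for 932 and none for 9160, beside 64 controls.

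The log2 values were fitted with limma 3.58.1 in R 4.3.3 (lmFit and eBayes, no covariates), also over all probe sets. Log2 5 stands in for the study's background level. A fold is given as "at least" where an array of the lower group was under log2 5, with values under it raised to 5. The fit was tested on simulated arrays. Members and lists were chosen with earlier results of these data known. Named were all members, Runx3, Itga2, list genes past BH 5%, then up to 4 by smallest p at the study's thresholds, defining genes under log2 5, and the 8 nearest profiles; a few other list members were named after their values were seen. The number of arrays limits precision. Scaling, filter, floor, probe set choice, moderation, weights, replicate block and leaving out each array were tried as alternatives.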

Additional observations from a re-analysis of the deposited data

How the results depend on the processing

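Hdc, Mcpt8, Cpa3 and Cyp11a1 kept a higher signal in Runx3-/- under every alternative that gave a value, and 3 to 5 members met the study's thresholds in all of them. The number of members past BH 5%, 2, was 0 with no filter on level, with every probe set counted, without probe sets ending in _x_at or _s_at (which leaves Hdc out), without moderation and with the replicate block, 1 with values raised to log2 5 and with the mean of all probe sets, and 0 to 1 when 1 array was left out. The highest number under any alternative was 3. The adjusted p ran from 0.0162 to 0.218 for Hdc and from 0.0202 to 0.236 for Cyp11a1. Over all genes the 58 calls became 1 with no filter, 98 with log2 5 on all arrays of a group, 37 with values raised to log2 5, 12 with the mean of all probe sets, 14 with every probe set counted, 203 with array weights, 0 without moderation and 0 with the replicate block, and 0 to 127 when 1 array was left out. The 1313 genes at the study's thresholds became 2123 probe sets with every probe set counted and 818 without moderation. The mean difference of the members, 1.49, was 2.10 with the dimmer Cd200r3 probe set, an alternative chosen after seeing the data, and 1.06 to 1.77 when 1 array was left out. Of the member probe sets 0 passed BH 5%, but 1 did with trend and robust moderation and 4 with array weights. The Cd200r3 change of -0.36 was 1.16 with the mean of its probe sets, 2.68 with the dimmer one, 0.42 without Runx3-/- replicate 3, 0.22 without WT replicate 1 and 0.04 without WT replicate 3, in a range from -1.33 to 0.42 when 1 array was left out. The causes were not tested. Same-numbered arrays had correlations of their deviations of 0.0652, -0.186 and 0.154, and arrays with different numbers had -0.273 to 0.218. These values show no sign of pairing by number but cannot exclude it. The share of lower genes among those at the study's thresholds was 64.4%, and 56.9% with arrays centred on their medians. Signals near or under log2 5, as for Cd200r3, follow the background model and limit what can be read from them.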
